A study of Mus musculus with 2 samples.

Results

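The comparison described here is between cells of the E9.5 mouse AGM region sorted as VE-cadherin positive and cells of the same region sorted as VE-cadherin negative. AGM stands for aorta-gonad-mesonephros, the trunk region that holds the dorsal aorta. Wells were taken by the stage, tissue and gate given for them in the deposited tables and were kept if they held 500 or more genes, which left 299 wells of the positive gate and 354 wells of the negative gate. These 653 wells are a share of the 2644 wells that passed the same rule in the 8 sorted pools of the study and of 2954 wells in all. What was sought were the genes on which these gates differ in the AGM, with the genes that separate the same gates in the yolk sac set beside them.

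All cells came from wild type C57Bl/6 mouse embryos with no treatment. The AGM and the yolk sac of E9.5 and of E11.5 embryos were dissociated, live cells negative for the dead-cell dye 7AAD were sorted in bulk into VE-cadherin positive and negative tubes, and single cells were dispensed on ICELL8 nanowell chips, 1 chip per stage. The E9.5 chip holds 4 groups used throughout: the positive and the negative gate of the AGM, then the same gates of the yolk sac. The labels do not say how many embryos went into a tube, so each pool is 1 sample. There are therefore no replicates, and no p-value or standard error is given. Intervals of log2 ratios and of their differences are 95% intervals for counting error only. Since copies made by PCR are not independent molecules, they can be too narrow.

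VE-cadherin, the product of Cdh5, is the adhesion protein of endothelial junctions and is the usual surface marker of embryonic endothelium. In the AGM some endothelial cells of the dorsal aorta are haemogenic: under the transcription factor Runx1 they turn into blood progenitors and stem cells, which then bud into the lumen. The cells around the aorta are mesenchyme, somite derivatives, neural tube, neural crest and the precursors of kidney and gonad, and they secrete signals such as Kit ligand, BMP4, Wnt and hedgehog proteins. The yolk sac, outside the embryo, is where the earliest red blood cells and macrophages form. At this age primitive red cells from the yolk sac circulate through both tissues.

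The summed counts were 1902499 in the AGM positive pool, with a median of 5832 counts and 1831 genes per well, and 1699711 in the AGM negative pool, with a median of 4396 counts and 1814 genes. Haemoglobin genes took a median of 24.4% of a well's counts in the AGM positive pool (range 7.68% to 33.8%), against 4.54% in the AGM negative pool (1.64% to 16.2%). In the yolk sac the order was the opposite, with a median of 19% in the positive pool and 38.1% in the negative pool. Pools were therefore scaled by the median gene and not by their totals, and the levels below are counts per 1000000 of that scaled size. A gene counts as measured with 20 or more counts over a pair, and as higher or lower when the positive pool is at least 2-fold above or below the negative pool. In these pools fewer cells of a type and less RNA per cell cannot be told apart.

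The gates matched their labels. Cdh5 itself had 831 counts in the AGM positive pool and 25 in the AGM negative pool, levels of 419 and 11.4. It was found in 89.0% of the positive wells and in 6.78% of the negative wells. The log2 ratio of positive over negative was 5.20 (4.62 to 5.83), close to the 5.57 of the yolk sac gates. All 16 genes of the endothelial list were higher in the AGM positive pool, with a median log2 ratio of 5.16 and a summed level of 2244 against 69.9, and all 16 were higher in the yolk sac positive pool too, with a median of 5.04. In the AGM, 9964 genes were measured: 995 of them (9.99%) were higher in the positive pool and 1465 (14.7%) were lower. The median over all of these genes was -0.08.

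These calls depend on the scale. With plain pool totals in place of the median gene, the median over all genes moved to -0.38 in the AGM and 0.82 in the yolk sac, and the AGM calls became 725 higher and 2118 lower. TMM scaling moved the AGM median to 0.06, and totals without haemoglobin and mitochondrial genes moved the yolk sac median to 0.44. Higher genes made up 25.5% of the calls with plain totals, against 40.4% on the main scale. In what follows a ratio near -0.08 is a ratio like that of the typical gene. Counts of list members in the AGM are to be set against 9.99% higher and 14.7% lower over all measured genes. Among the 1196 of these genes with under 20 counts over the yolk sac pair, the shares were 6.61% higher and 57.8% lower.

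Cldn5, Egfl7, Adgrl4 and Grap led the genes that were higher in the positive gate of both tissues. Of 8768 genes measured in both pairs, 472 (5.38%) were higher in the positive pool of both the AGM and the yolk sac, and 110 (1.25%) were lower in both. Cldn5, the tight junction protein of endothelium, had levels of 84.6 and 0.913 in the AGM positive and negative pools and a log2 ratio of 6.53 (4.66 to 9.59), beside 7.09 (4.57 to 12.41) in the yolk sac. Egfl7, a protein secreted by endothelial cells, stood at 35.8 and 0.457, a ratio of 6.29 (3.77 to 11.62), beside 5.57 (2.98 to 10.92). Adgrl4, an adhesion receptor of endothelium, gave 5.67 (3.77 to 8.73) beside 6.24 (4.34 to 9.30), and the adaptor gene Grap gave 5.97 (3.44 to 11.30) beside 6.47 (3.93 to 11.80). On the lower side the shared genes were led by the interstitial collagens Col1a2, Col3a1 and Col1a1, with AGM ratios of -3.77, -3.61 and -3.58 beside yolk sac ratios of -4.35, -4.30 and -4.84.

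Ets-family factors and E-box binding factors such as Tal1 are known regulators of endothelial and blood genes, so the promoters of the named genes were searched on both strands for AGGAAG, a form of the Ets core, and CAGCTG, an E-box that reads the same on both strands. The 4 promoters below are picked examples: Egfl7 and Adgrl4 of the shared endothelial genes, Runx1 of the blood genes that set the AGM apart, and Pdgfra of the mesenchymal genes of the negative gate. Each runs from 250 bases before to 50 bases after an annotated start of the gene (RefSeq, build GRCm38.p6); where several starts are listed, 3 for Egfl7 and 2 for Runx1, the first listed was taken. They are written 5′ to 3′ on the gene's own strand, and capitals mark a match to either motif. They lie at chr2:26580833-26581132 (plus strand, Egfl7), chr3:151437632-151437931 (plus strand, Adgrl4), chr16:92826025-92826324 (minus strand, Runx1) and chr5:75152001-75152300 (plus strand, Pdgfra).
Egfl7: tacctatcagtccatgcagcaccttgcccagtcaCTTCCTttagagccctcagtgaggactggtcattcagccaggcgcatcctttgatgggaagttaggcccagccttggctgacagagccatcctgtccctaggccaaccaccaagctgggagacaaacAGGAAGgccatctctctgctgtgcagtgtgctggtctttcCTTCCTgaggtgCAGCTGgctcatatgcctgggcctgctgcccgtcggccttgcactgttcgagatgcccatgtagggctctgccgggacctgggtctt
Adgrl4: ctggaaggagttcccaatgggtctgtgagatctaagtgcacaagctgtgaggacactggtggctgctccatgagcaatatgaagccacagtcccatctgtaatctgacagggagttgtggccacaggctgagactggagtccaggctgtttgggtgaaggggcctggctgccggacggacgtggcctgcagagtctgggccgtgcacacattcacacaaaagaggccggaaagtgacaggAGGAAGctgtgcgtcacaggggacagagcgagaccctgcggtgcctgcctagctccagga
Runx1: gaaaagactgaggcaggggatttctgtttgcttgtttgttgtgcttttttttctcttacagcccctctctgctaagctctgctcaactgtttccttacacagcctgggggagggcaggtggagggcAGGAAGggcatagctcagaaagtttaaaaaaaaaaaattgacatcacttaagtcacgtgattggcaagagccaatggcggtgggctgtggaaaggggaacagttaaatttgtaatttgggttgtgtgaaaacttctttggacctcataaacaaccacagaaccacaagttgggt
Pdgfra: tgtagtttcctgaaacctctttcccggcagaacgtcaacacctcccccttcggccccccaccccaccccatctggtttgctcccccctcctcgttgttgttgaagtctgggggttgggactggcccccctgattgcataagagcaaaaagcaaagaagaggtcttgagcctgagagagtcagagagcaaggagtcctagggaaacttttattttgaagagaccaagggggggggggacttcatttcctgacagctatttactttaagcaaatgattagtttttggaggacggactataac
This Egfl7 window holds 3 matches to AGGAAG, counting CTTCCT as the other strand, and 1 to CAGCTG. The Adgrl4 and Runx1 windows hold 1 match to AGGAAG each, and these letters are not in the Pdgfra window. AGGAAG is held by 35.1% of all 27025 RefSeq promoters, a share to set against 6 of 18 promoters (33.3%) of named genes higher in the positive gate and 2 of 15 (13.3%) of named genes lower in it. CAGCTG is in 16.1% of all promoters, in 2 of 18 (11.1%) and in 2 of 15 (13.3%). The named genes higher in the positive gate thus hold AGGAAG about as often as any promoter does, and 36 of 51 genes looked up had a promoter in the table.

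A gene was called set apart when it was at least 2-fold different in the AGM, its log2 ratio was at least 1 beyond that of the yolk sac in the same direction, and the interval of that difference did not reach 0. By this rule 369 of the 8768 genes (4.21%) were set apart as higher in AGM positive cells and 493 (5.62%) as lower. Higher genes were 42.8% of the genes set apart, a share that became 13.9% with plain totals, 56.4% with TMM scaling and 34.3% with totals that leave out haemoglobin and mitochondrial genes. Of the 8768 genes, 169 (1.93%) were at least 2-fold higher in the AGM and at least 2-fold lower in the yolk sac. The reverse held for 203 (2.32%). These counts ask for 2-fold in both pairs and not for the interval of the difference. Across 8743 genes the AGM and yolk sac ratios had a Pearson correlation of 0.29, and the points share the chip and the scale.

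**Figure D1:**
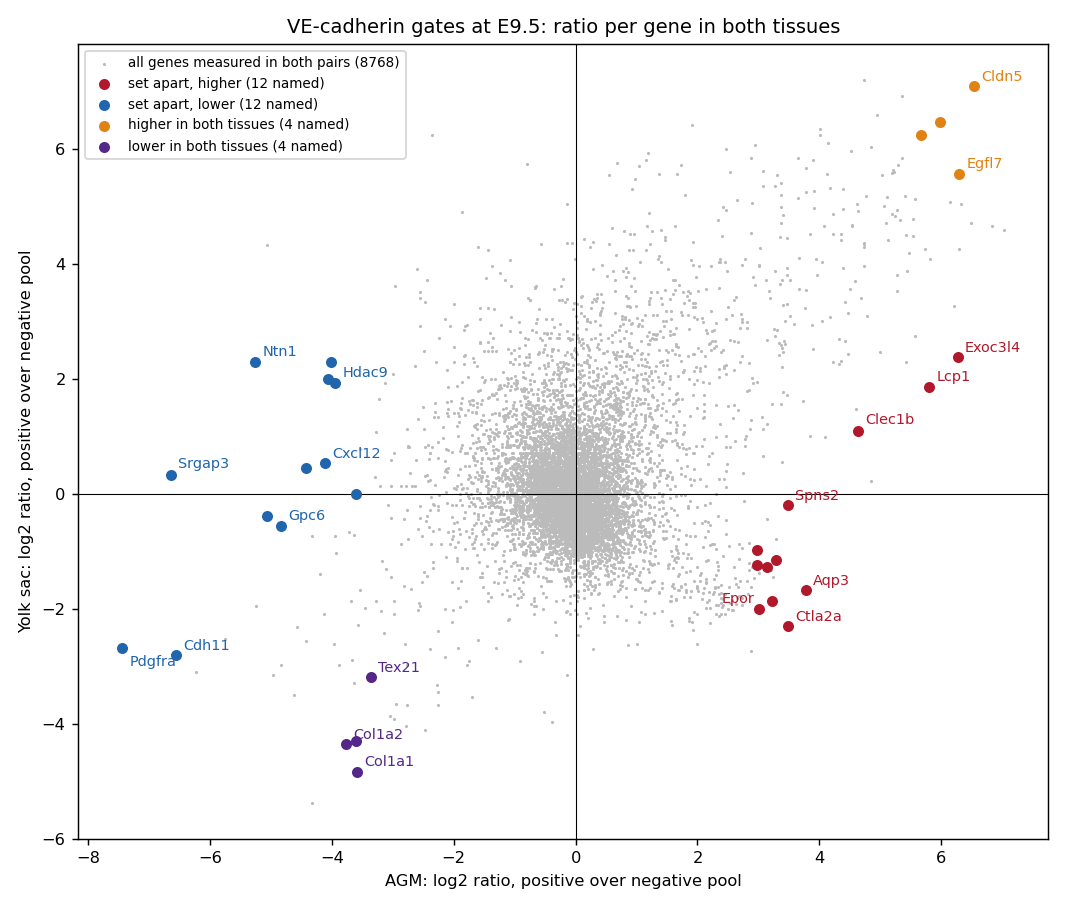
Each point is a gene measured in both E9.5 pairs, with the log2 ratio of VE-cadherin positive over negative in the AGM on the horizontal axis and in the yolk sac on the vertical axis. The named genes that were set apart lie to the far right and far left of the cloud and away from the diagonal, while the shared endothelial genes lie at the top right, with log2 ratios above 5 in both tissues.

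Lcp1, Exoc3l4, Aqp3 and Clec1b led the genes set apart as higher. Lcp1, an actin-bundling protein of blood cells, had 152 counts in AGM positive wells and 3 in AGM negative wells, levels of 76.6 and 1.37. Its log2 ratio was 5.80 (4.23 to 8.10) in the AGM and 1.86 in the yolk sac. Clec1b, the C-type lectin receptor CLEC-2 of platelets, stood at 79.1 and 3.20, a ratio of 4.63 (3.55 to 5.97), beside 1.09 in the yolk sac. Exoc3l4 had 70 counts against 1, a ratio of 6.27 (3.75 to 11.59), beside 2.38. These genes were higher in the positive gate of both tissues, and further apart in the AGM.

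The next genes were higher in the positive gate of the AGM and lower in that of the yolk sac. The metallothionein genes Mt1 and Mt2, whose products bind zinc and copper, had levels of 795 and 81.7 (Mt1) and 518 and 65.8 (Mt2) in the AGM positive and negative pools. Their log2 ratios were 3.28 (3.06 to 3.51) and 2.98 (2.72 to 3.24) in the AGM, beside -1.16 and -1.25 in the yolk sac. Aqp3, a water and glycerol channel of mouse red cells, stood at 43.8 and 3.20 in the AGM pools, against 31.5 and 101 in the yolk sac pools. Epor, the erythropoietin receptor, stood at 25.7 and 2.74 in the AGM and at 14.1 and 51.7 in the yolk sac. Ctla2a, an inhibitor of cathepsin L, had ratios of 3.48 and -2.31. Of its counts in the yolk sac negative pool 31.8% lay in 1 well, and its ratio without that well was not computed. Cited4, a transcriptional co-activator, had 3.0 and -2.01, and the glycoprotein gene Creg1 had 3.14 and -1.28. In all of them the AGM negative pool had the lowest level of the 4.

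Spns2, which exports the lipid signal sphingosine-1-phosphate from endothelial cells, had levels of 40.8 and 3.65 in the AGM pools and 48.8 and 56.0 in the yolk sac pools, ratios of 3.48 (2.43 to 4.74) and -0.20. Ikzf1, which encodes the lymphoid and blood progenitor factor Ikaros, had 64 and 9 counts in the AGM and a ratio of 2.97 (1.96 to 4.16), beside -0.98. It was the last of the 12 under the rule, and the next gene, S100a16, had 67 counts against 1 and a difference from the yolk sac of 2.94. Thus 7 of the 12 were at least 2-fold the other way in the yolk sac and 3 were at least 2-fold the same way.

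The order of the 4 pools in many of these genes was the order of their haemoglobin. Haemoglobin genes had 421932 counts in the AGM positive pool and 73186 in the AGM negative pool, and 245287 and 1430757 in the yolk sac positive and negative pools. Per 100000 haemoglobin counts, Mt1 had 374 counts in AGM positive wells, 245 in AGM negative wells, 453 in yolk sac positive wells and 284 in yolk sac negative wells. Epor had 12.1, 8.2, 8.97 and 9.23 in the same order, and Cited4 had 19, 15.0, 14.7 and 16.6. Of the 12 genes, 5 stayed within 2-fold over the 4 pools on this measure: Mt1, Epor, Creg1, Cited4 and Mt2.

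Haemoglobin as a whole had a log2 ratio of 2.67 in the AGM and -1.83 in the yolk sac, so a gene within 2-fold of it in all 4 pools has an AGM ratio of at least 1.67 and a yolk sac ratio of at most -0.83. Of the 8768 genes measured in both pairs 84 were within 2-fold, and that all 84 were set apart as higher follows from these ratios. The measure was chosen after the values had been seen. By another cut, 16 of the 369 genes had in the AGM positive pool at least 2-fold more counts per haemoglobin count than in either negative pool. This is a steep demand on the AGM negative pool with its few haemoglobin counts. The share of all 8768 genes that meet it was not counted, so the 16 cannot be called many or few. Lcp1 had 36.0 counts per 100000 haemoglobin counts in AGM positive wells, 4.10 in AGM negative wells, 37.1 in yolk sac positive wells and 2.87 in yolk sac negative wells. Clec1b had 37.2, 9.56, 44.8 and 5.94, and Exoc3l4 had 16.6, 1.37, 7.75 and 0.419. Beyond the 12, S100a16 and the progenitor and endothelial surface gene Cd34 were among the 16 as well.

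**Figure D2:**
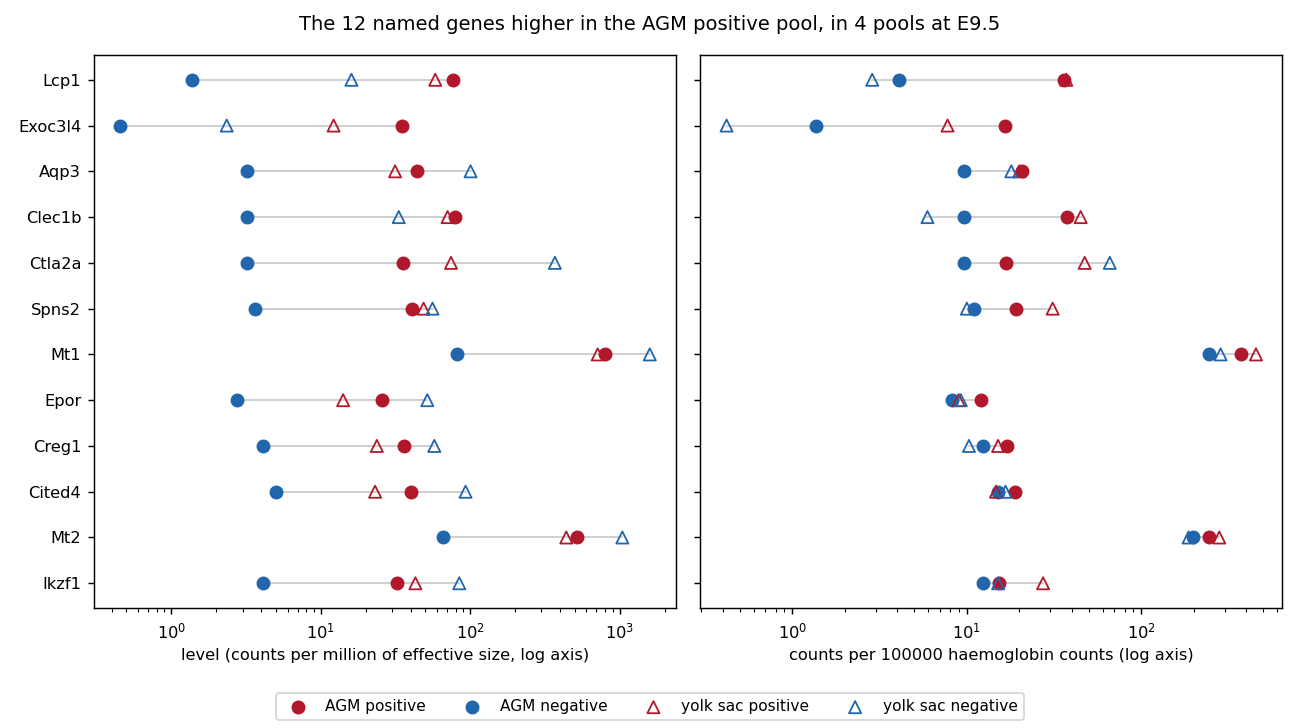
The 12 leading genes set apart as higher in AGM positive cells are shown with their level in the 4 pools on the left (counts per 1000000 of scaled pool size, log axis) and their counts per 100000 haemoglobin counts on the right (log axis). On the left the AGM negative pool is the lowest for all 12 genes. On the right the pools of Mt1, Mt2, Epor, Creg1 and Cited4 lie within 2-fold of each other. Only Lcp1, Exoc3l4 and Clec1b keep both positive pools more than 2-fold above both negative pools, though Mt1, Mt2 and others have the same order by less.

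Red cell genes as a group were on the AGM positive side. Of 18 erythroid genes, all measured, 17 were higher in AGM positive cells and none was lower, with a median log2 ratio of 2.44 and a summed level of 213669 against 33688. Over all measured AGM genes 9.99% were higher and 14.7% lower. In the yolk sac, where 19.9% of 9371 measured genes were higher and 8.76% lower, 17 of the 18 were lower, with a median of -1.83. Alas2, which starts haem synthesis in red cells, had levels of 289 and 53.9 in the AGM pools. Its AGM ratio was 2.42 (2.13 to 2.72), beside -1.93 in the yolk sac. Gata1, the erythroid master factor, had 87 and 24 counts, a ratio of 2.00 (1.33 to 2.72). The exception was Hbb-bs, with 883 and 1391 counts. It is nearly identical to Hbb-bt (1006 and 414 counts), so reads could be split either way, which was not tested. The levels were 445 and 635 for Hbb-bs and 507 and 189 for Hbb-bt. Their sum was less than 2-fold higher in the positive pool, and a split of reads between these genes would not change it. Haemoglobin RNA was also present in the 48 negative control wells of the chip, which held 1489 haemoglobin counts out of 6452.

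Most genes of emerging blood that were measured in both tissues were set apart as higher in AGM positive cells, as were 17 of the 18 erythroid genes. Runx1, the factor that haemogenic endothelium needs, had 44 counts in AGM positive wells and 2 in AGM negative wells, levels of 22.2 and 0.913, and was found in 11.7% and 0.565% of the wells. In the yolk sac it had 120 and 71 counts, levels of 77.1 and 27.8. The log2 ratios were 4.60 (2.66 to 7.69) and 1.47, a difference of 3.13 (1.14 to 6.25). Yolk sac positive cells thus had more Runx1 than AGM positive cells, and the steeper AGM ratio came with a level of 0.913 in AGM negative cells. Per 100000 haemoglobin counts Runx1 had 10.4 and 2.73 counts in the AGM pools and 48.9 and 4.96 in the yolk sac pools.

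Of 16 genes on the haemogenic list 9 were measured in the AGM. Of these 8 were higher and none lower, with a median of 2.38. In the yolk sac 13 were measured, with a median of 1.07, so the medians cover different sets of genes. All 9 were measured in both tissues, and 6 of them were set apart as higher: Runx1, Ikzf1, Gfi1b, Tal1, Lyl1 and Lmo2. Over all genes measured in both tissues 4.21% were. Tal1, a factor of blood and endothelium that is also active in red cells, had levels of 76.1 and 17.8 in the AGM pools and 63.6 and 121 in the yolk sac pools. Gfi1b, which helps to switch off the endothelial program, had 24.2 and 7.76, against 36.6 and 79.1. Lmo2, a partner of Tal1, had 30.7 and 4.57, against 23.8 and 18.4. Kit, the receptor for Kit ligand, went the other way in size: its AGM ratio of 1.87 (1.26 to 2.52) was below the 3.37 of the yolk sac. Gata2 had only 9 and 2 counts and was not measured. The part of red cells in the ratios of Tal1, Gfi1b, Lyl1 and Ikzf1, which the erythroid genes accompany in all 4 pools, was not tested.

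A further 5 named genes were higher in AGM positive cells and had under 20 counts over both yolk sac pools, so that no yolk sac ratio exists for them. Over all 1196 genes of this kind, 79 (6.61%) were higher in the AGM positive pool and 691 (57.8%) lower. Tmem255a had 69 and 2 counts, a ratio of 5.25 (3.34 to 8.32), and the calcium-permeable channel gene Trpc6 had 76 and 4, a ratio of 4.39 (2.97 to 6.30). Their yolk sac counts were 5 and 0 for Tmem255a and 5 and 13 for Trpc6. Enc1, Zbtb7c and Crmp1 followed with smaller ratios of 2.67, 1.68 and 1.32.

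Genes that mark kinds of endothelium separated the AGM gates much less than the yolk sac gates. Summed levels of the arterial list were 478 and 183 in the AGM pools, against 413 and 22.3 in the yolk sac pools. All 9 arterial genes measured in the yolk sac were higher in its positive pool, with a median of 4.36. With so little in the yolk sac negative pool, a gene reached 20 counts over that pair mainly through the positive pool. That all 9 were higher was thus largely set by the count minimum. In the AGM 9 of 13 were higher and none lower, with a median of 1.22, so the medians cover different sets of genes. With plain totals 6 of the 13 were higher and 1 lower. Efnb2, the arterial ephrin, had levels of 47.9 and 21.5 in the AGM pools and 43.7 and 0.784 in the yolk sac pools, ratios of 1.16 (0.64 to 1.69) and 5.80 (3.89 to 8.88). The transcription factor gene Mecom had 149 and 64.4 in the AGM, against 116 and 3.92 in the yolk sac. Jag1, a Notch ligand, had 13.1 and 13.7, against 16.1 and 0.784. The positive pools of both tissues were alike in these genes; the negative pools were not, since AGM negative cells held the RNA and yolk sac negative cells hardly did. Sox17 and Gja4, a transcription factor and a gap junction protein of arteries, were the exceptions, with AGM ratios of 4.95 (3.35 to 7.26) and 5.45 (3.54 to 8.52).

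The venous list was similar: in the AGM 5 of 9 measured genes were higher and 1 lower (median 1.91), while in the yolk sac all 9 were higher (median 4.76). Aplnr, the apelin receptor of veins, was steep in both, at 5.35 (4.10 to 6.99) and 6.91 (5.03 to 9.97). Ephb4, the venous receptor for ephrin-B2, had 51.4 and 13.7 in the AGM pools against 33.4 and 0.392 in the yolk sac pools. Nr2f2, which encodes the venous factor COUP-TFII and is also made in mesenchyme, was set apart as lower, with levels of 32.2 and 77.2 in the AGM, a ratio of -1.26 (-1.70 to -0.84), against 18.6 and 7.05 in the yolk sac.

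Scavenger receptors of yolk sac endothelium separated the AGM gates less than the yolk sac gates, with summed levels of 230 and 101 in the AGM pools, against 2638 and 73.3 in the yolk sac pools. Stab2, a receptor for hyaluronan, had 31 counts in AGM positive wells and 15 in AGM negative wells, against 1299 and 35 in the yolk sac pools. Lyve1, its relative on lymphatic and yolk sac endothelium, had 49 and 37, against 1316 and 46. Of 8 genes measured 4 were higher and 1 lower in the AGM, with a median of 0.80. In the yolk sac all 9 measured were higher, with a median of 5.55, so the medians cover different sets of genes. These 9 too reached the count minimum mainly through the yolk sac positive pool. Stab1 was the steepest in the AGM, at 5.58 (4.19 to 7.47). With plain totals, 2 of the 8 were higher in the AGM.

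The transcription factors of endothelium kept their gate difference. Of 18 measured, 16 were higher and 1, Nr2f2, lower in the AGM, with a median of 2.74, beside 3.18 in the yolk sac. Sox7 had 81 and 1 counts, a ratio of 6.48 (3.96 to 11.80). Erg, an Ets factor, had levels of 79.1 and 3.20 and Klf2, the flow-induced factor, 58.4 and 2.28. Bcl6b with 48 counts and Hhex with 35 had none in the AGM negative pool; set against a floor of 3 counts in that pool, their log2 ratios were at least 4.14 and 3.69.

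The receptors Kdr, Flt1, Flt4, Tek and Tie1 were higher in AGM positive cells. Kdr and Flt1, the main VEGF receptors, had levels of 260 and 7.76 (Kdr) and 225 and 5.94 (Flt1), and Tek, the receptor for angiopoietins, had 183 and 4.57. Vegfa, the ligand of Kdr and Flt1, had 15 and 34 counts, a ratio of -1.04 (-2.02 to -0.12), whereas Vegfc, the ligand of Flt4, had levels of 40.3 and 16.9, a ratio of 1.25 (0.67 to 1.86). The ligand Angpt1 was set apart as lower: levels of 10.1 and 36.5 in the AGM pools, a ratio of -1.86 (-2.64 to -1.14), against 61.7 and 16.1 in the yolk sac pools. S1pr1, an endothelial receptor of sphingosine-1-phosphate, had 142 and 2 counts, while S1pr3 had 2 and 69. Of the 9 measured genes of the angiopoietin, apelin and sphingosine-1-phosphate list 6 were higher and 3 lower, and of the 8 VEGF and neuropilin genes 5 were higher and 2 lower.

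**Figure D3:**
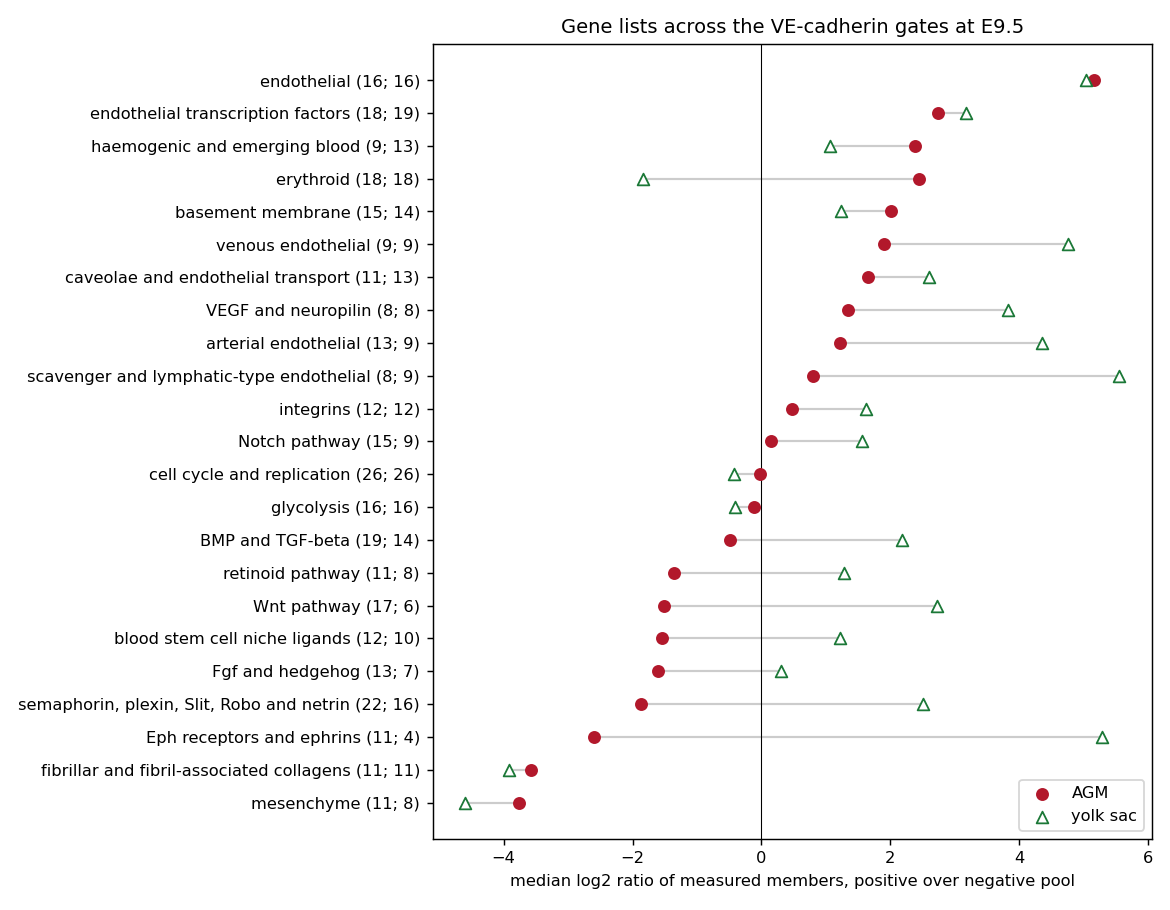
Median log2 ratio of VE-cadherin positive over negative for 23 gene lists at E9.5, with AGM medians as circles and yolk sac medians as triangles, and the number of measured members in the AGM and the yolk sac in brackets. The endothelial list lies near 5 in both tissues, the erythroid list is at 2.44 in the AGM and -1.83 in the yolk sac, and the arterial, venous and scavenger lists have AGM circles far to the left of their yolk sac triangles.

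Basement membrane genes were on the positive side in the AGM: 9 of 15 measured were higher and none lower, with a median of 2.00, beside 7 higher and 1 lower of 14 in the yolk sac. Of these, 3 were set apart as higher. Sparc, a collagen-binding matrix protein, had levels of 238 and 43.8 in the AGM pools, against 338 and 284 in the yolk sac pools. Col15a1 had 20.2 and 2.28, against 8.99 and 12.1, and Nid1, the linker of laminin and collagen IV, had 101 and 12.8, against 68.1 and 17.6. Outside this list Bgn, a small proteoglycan, was set apart as higher with 46.3 and 6.85 in the AGM, and so was Hapln1, which ties hyaluronan to proteoglycans, with 317 and 19.2.

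Srgap3, Ntn1, Pdgfra and Kif26b led the 12 named genes set apart as lower. Pdgfra, the platelet-derived growth factor receptor of mesenchyme, had 1 count in AGM positive wells and 191 in AGM negative wells, where 37.9% of the wells held it. Its log2 ratio was -7.44 (-12.75 to -4.94), beside -2.68 (-5.82 to -0.65) in the yolk sac. Cdh11, a cadherin of mesenchyme, had 2 and 207 counts, a ratio of -6.55 (-9.61 to -4.68), beside -2.81 (-5.94 to -0.79). Gpc6, a heparan sulphate proteoglycan of the cell surface, had levels of 20.2 and 576 in the AGM pools, against 20.6 and 30.2 in the yolk sac pools. Its AGM ratio of -4.84 (-5.33 to -4.38) rests on 40 and 1261 counts. Of its 32 counts in the yolk sac positive pool 21 lay in 1 well; without that well the level there was 7.11 and the yolk sac ratio -2.08 (-3.15 to -1.17), beside -0.55 with it, and Gpc6 was still set apart.

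Cxcl12, the chemokine that holds blood stem cells near stroma, had 8 counts in AGM positive wells and 152 in AGM negative wells. Its levels were 4.03 and 69.4 there, against 9.64 and 6.66 in the yolk sac pools. Ntn1, the guidance protein netrin-1, had 3 and 127 counts in the AGM, a ratio of -5.26 (-7.56 to -3.68), against 15 and 5 in the yolk sac. Srgap3, which acts downstream of the Slit receptor Robo, had 1 and 110 counts, a ratio of -6.64 (-11.96 to -4.13). The cadherin and netrin genes, the chemokine gene and Srgap3 were each found in over 20% of AGM negative wells and in under 3% of AGM positive wells.

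The remaining 6 of the 12 were Kif26b, Fhod3, Rab11fip4, Scube1, Hdac9 and Dlg3. Kif26b, a kinesin-like gene needed for kidney formation, had 2 and 74 counts, a ratio of -5.07 (-8.14 to -3.16). Fhod3, a formin of heart muscle, had 3 and 71, a ratio of -4.42 (-6.73 to -2.82). Rab11fip4, Scube1, Hdac9 and Dlg3 had ratios from -4.05 to -3.60, and Dlg3, a synaptic scaffold gene and the last under the rule, was followed by Pag1 at -3.53. In the yolk sac Ntn1, Rab11fip4, Scube1 and Hdac9 were at least 2-fold the other way on few counts (21 and 9 for Hdac9, 15 and 5 for Ntn1), and Pdgfra and Cdh11 were at least 2-fold the same way. In the yolk sac positive pool 1 well held 9 of the 15 counts of Scube1, 5 of the 7 of Kif26b, 5 of the 10 of Fhod3 and 6 of the 17 of Rab11fip4. Without that well each of these 4 genes had under 20 counts over the yolk sac pair and could not be called set apart. The yolk sac ratio of Scube1 was then 0.98, no longer 2-fold, beside 2.30 with it, and the interval of the Kif26b difference reached 0, at -2.90 (-6.62 to 0.80). With each well given equal weight, 7 of the 12 were still set apart and all 12 were still at least 2-fold lower.

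Another 10 named genes were lower in the AGM positive pool and had too few yolk sac counts for a ratio. Crabp2, a carrier of retinoic acid, had 8 and 750 counts in the AGM, levels of 4.03 and 342, and was found in 2.68% of positive and 85.0% of negative wells. Meox1 and Pax3, transcription factors of somites, had 1 and 144 (Meox1) and 1 and 117 (Pax3). Arg1, arginase 1, had 2 and 192 and was found in 41.8% of AGM negative wells. Gli2 and Gas1, an effector and a co-receptor of hedgehog signals, had 2 and 110 (Gli2) and 1 and 63 (Gas1). Nr2f1, Kif5c, Dixdc1 and Sox2ot were alike, with 1 or 2 counts against 62 to 109; Sox2ot overlaps Sox2 on the genome and its count is uncertain, as the counting strand is not given.

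Most marker lists of other trunk tissues were on the negative side. All 11 measured mesenchyme genes were lower in the positive pool, with a median of -3.77 and summed levels of 27.7 and 410, and so were all 6 paraxial mesoderm and somite genes (median -3.67) and all 5 genes of intermediate mesoderm, nephros and coelom (median -3.32). Of 7 neural progenitor genes 6 were lower, of 9 neuron genes 8, and of 5 cardiac genes 5. Of these AGM genes, none of the somite or intermediate mesoderm lists, 1 neural progenitor gene and 2 neuron genes were also measured in the yolk sac. Over all AGM genes with under 20 counts over the yolk sac pair 57.8% were lower, against 14.7% over all measured genes. Twist1, a factor of mesenchyme, had 6 and 71 counts. Sox9, of cartilage precursors and neural tube, had 0 and 54; Osr1 and Wt1, of the kidney and gonad precursors, had 0 and 33 (Osr1) and 0 and 20 (Wt1); and Pax6 and Olig2, of the neural tube, had 0 and 39 (Pax6) and 0 and 32 (Olig2). Only Nes, with 186 and 161 counts, was not lower among the neural progenitor genes, and Nes is also made by endothelium. The neural crest list was split: of 6 measured genes 4 were lower, among them Cdh6 with 2 and 87 counts, but 2 were higher, Ets1 with levels of 155 and 33.3 and Mef2c with 155 and 30.1, so that its summed level was 323 in the positive pool and 176 in the negative pool. Ets1 and Mef2c are made by endothelium as well. Of 4 measured genes of gut and other epithelium 1 was higher and 2 were lower.

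Markers of other blood and yolk sac cell types were at low levels in both gates. The macrophage list had 4 of 14 genes measured, with 2 higher and 1 lower and a summed level of 46.3 in the positive pool and 46.6 in the negative pool; 4 of the 14 were at 0 in the positive pool. The platelet list had 3 of 10 measured, with summed levels of 30.2 and 34.2. Pf4, platelet factor 4, had 8 and 46 counts. Of 14 visceral endoderm genes 1 was measured in the AGM, against 12 in the yolk sac.

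Signals that pass between cells divided by side of the gate. In the retinoid pathway 6 of 11 measured genes were lower and 2 higher. The carrier Crabp1 had levels of 8.56 and 329, and Aldh1a2, which makes retinoic acid, had 2 and 69 counts; Cyp26b1, which breaks it down, had 20 and 3. Hedgehog and Fgf genes were lower in 10 of 13 cases and higher in none; Gli3 had 25.2 and 64.8 in the AGM and 23.1 and 3.92 in the yolk sac. Of 17 Wnt genes 12 were lower and 2 higher: the receptor Ror2 had 13.6 and 84.5, and its ligand Wnt5a had 2 and 33 counts.

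BMP and TGF-beta genes were more even, with 5 higher and 7 lower of 19, where 9.99% and 14.7% of all genes were. The receptors Acvrl1 and Tgfbr2 were higher, at 24.2 and 2.28 (Acvrl1) and 27.7 and 2.74 (Tgfbr2), and Bmpr1b, with 4 and 93 counts, was lower. Bmp4, a ligand made around the aorta, had 34 and 33 counts. Id1 and Id2, which BMP signals turn on, were both set apart as lower: Id2 had 30.2 and 96.4 in the AGM, against 11.6 and 5.09 in the yolk sac. Among Notch genes 5 of 15 were higher and 2 lower, beside the same shares of all genes.

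Guidance genes were mostly on the negative side. Of 22 measured semaphorin, plexin, Slit, Robo and netrin genes 13 were lower and 5 higher, and of 11 Eph and ephrin genes 8 were lower and 3 higher. Dcc, the netrin receptor, had 2 and 182 counts, and Robo2, a Slit receptor, had 3 and 179. Epha7 had 8 and 189 counts. Among the higher ones were genes known from vessels: Plxnd1, the semaphorin receptor of endothelium, with levels of 114 and 7.31, Efna1 with 64.0 and 1.37, and Robo4 with 28 and 3 counts.

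Hox genes, which give position along the trunk, were mostly lower in the positive gate. All 4 measured genes of paralogue groups 1 to 4, and 6 of 8 in groups 5 to 9, were lower in the positive pool, and none of either was higher. Hoxa7 had levels of 14.1 and 56.2 and Hoxb9 had 2 and 60 counts. In the yolk sac no gene of these groups reached 20 counts over the pair. Over all 1196 AGM genes of that kind, 57.8% were lower and 6.61% higher in the AGM positive pool.

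Among ligands linked to blood stem cell support, 8 of 12 were lower in AGM positive cells and 2 were higher. Besides Cxcl12 and Angpt1, the heparin-binding growth factors Ptn and Mdk were lower, with levels of 9.57 and 300 (Ptn) and 176 and 618 (Mdk). Kitl, the ligand of Kit, was the reverse, with 68.0 and 32.4, a ratio of 1.07 (0.64 to 1.5), and Igf1 had 65.5 and 6.39. With plain totals Igf1 alone was higher.

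Among collagens and other matrix genes, 8 of 11 fibrillar and related collagens were lower and none was higher, with a median of -3.58, beside -3.92 in the yolk sac. Of 16 other matrix genes 10 were lower and 2 higher. Vcan, the large proteoglycan versican, had levels of 7.05 and 267 in the AGM pools, a ratio of -5.24 (-6.12 to -4.49), against 11.6 and 44.7 in the yolk sac pools. Gpc3, a glypican, had 15.1 and 359, against 8.99 and 45.1.

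Housekeeping genes hardly separated the gates. Of 26 cell cycle and replication genes 1 was higher and 1 lower, with a median of -0.03, next to -0.08 for all genes. Those were 2 cyclins of the same family: Ccnd3, with levels of 147 and 60.7, and Ccnd2, with 112 and 459. Of 16 glycolysis genes 1 was higher (Pfkp) and 1 lower (Hk2). Of 16 cholesterol genes 2 were lower, where 14.7% of all genes were.

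The counts summed above were also viewed well by well for the endothelial genes, which is no separate support for the pool ratios. The intervals of well shares are binomial over the wells of 1 pool, and wells are not replicates. With every well thinned to 2000 counts, 200 of 296 AGM positive wells (67.6%, interval 61.9% to 72.9%) held 3 or more of the 16 endothelial genes, against 1 of 354 AGM negative wells (0.282%, interval up to 1.56%). Of the negative wells 290 held none of the 16. Without thinning the shares were 96.7% and 0.565%. The cut falls in the middle of the positive wells, since 57 of them held exactly 2 genes and 57 exactly 3.

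**Figure D4:**
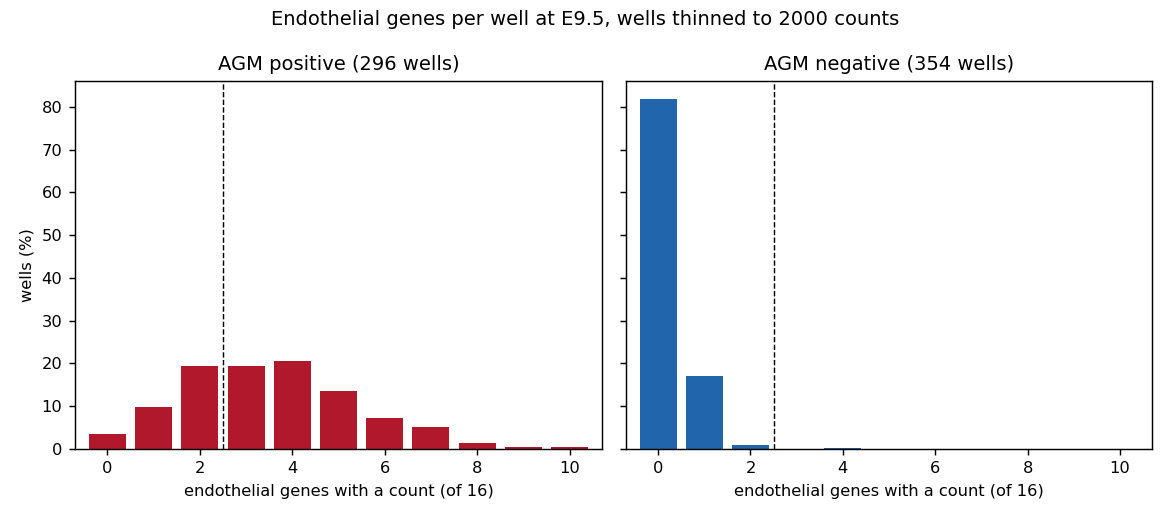
Number of the 16 endothelial genes found in each AGM well after thinning to 2000 counts, for 296 VE-cadherin positive wells on the left and 354 negative wells on the right, with the cut of 3 genes as a dashed line. Positive wells spread from 0 to 10 genes around a median of 3, and 290 of the negative wells are at 0.

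Of the 12 leading higher genes, 6 were found more often in positive wells with 3 or more endothelial genes than in those with fewer, and 6 less often. Cldn5 was found in 23.0% of thinned positive wells with 3 or more endothelial genes and in 6.25% of those with fewer, but it belongs to the list. Lcp1 was found in 14% and 11% of the same groups of wells, Clec1b in 16% and 18.8%, and Mt1 in 78.0% and 81.3%. Ikzf1 leaned towards wells with 3 or more, at 6% and 3.13%, and Aqp3 away from them, at 9% and 13.5%. Haemoglobin took a median of 23.2% of the counts in positive wells with 3 or more endothelial genes and 27.2% in those with fewer, and at least 1 of 11 other red cell genes was found in 91.0% and 90.6% of them. Thus wells rich in endothelial genes held red cell RNA as well, and whether it came from within the cells or from around them was not tested.

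The naming rule asked for a count in 10% or more of the wells of the higher AGM pool, so the shares of wells given next describe the chosen genes and are no support for them. At least 2 of the 12 leading lower genes were found in 57.1% of thinned AGM negative wells and in 0.676% of AGM positive wells, against 1.25% and 1.32% of the yolk sac positive and negative wells. At least 1 of the 10 genes with too few yolk sac counts was found in 85.6% of AGM negative wells and in 1.35% of AGM positive wells. Of the 12 leading higher genes, at least 2 were found in 76.4% of AGM positive wells and 4.80% of AGM negative wells, but also in 76.5% of yolk sac positive wells and 85.5% of yolk sac negative wells. In thinned AGM positive wells Mt1 was found in 79.1% and Mt2 in 66.9%, and Clec1b came next at 16.9%. The shares for the 12 thus owe much to Mt1 and Mt2. At least 1 of the 12 was found in 95.6% of AGM positive wells and in 37.9% of AGM negative wells, and before thinning Mt1 alone was found in 39.3% of AGM negative wells.

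Most of these genes kept their side of the gate in the E11.5 AGM, a pair that took no part in choosing them. At E11.5 there were 287 positive wells with a median of 2532 counts and 338 negative wells with a median of 2806.5 counts, on another chip. Of 8708 measured genes 1010 (11.6%) were higher in the positive pool and 1663 (19.1%) lower. Of the genes set apart as higher at E9.5, 181 of 275 measured (65.8%) were higher again and 7 (2.55%) were lower. Of those set apart as lower, 215 of 420 (51.2%) were lower again and 16 (3.81%) were higher.

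The haemoglobin share was again the larger in positive wells at E11.5, with a median of 25.6% against 3.45%. All 7 measured genes among the 12 leading higher genes were higher at E11.5, with Lcp1 at 4.73 (3.88 to 5.71), Mt1 at 3.19 (2.81 to 3.58) and Ikzf1 at 3.91 (2.56 to 5.61). Of the 12 leading lower genes 11 were lower again: Gpc6 at -3.73 (-4.10 to -3.38), Pdgfra at -3.21 (-4.06 to -2.46) and Cxcl12 at -3.11 (-3.94 to -2.39). Hdac9 was the exception, with 89 counts in the positive and 68 in the negative pool and a ratio of 1.37 (0.90 to 1.84). Runx1 stood at 3.31 (2.67 to 4.01) and Kit at 1.12 (0.35 to 1.90).

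Set against the E11.5 yolk sac in the same way, 135 of 266 genes (50.8%) were set apart as higher again, where 4.88% of all genes were, and 73 of 368 (19.8%) were set apart as lower again, where 3.73% of all genes were. All 9 measured genes of the lower group with too few yolk sac counts were lower at E11.5, while of the matching higher genes 1 of 3 measured, Tmem255a at 2.56 (1.17 to 4.19), was higher. Across 8081 genes the AGM ratios of the stages had a Pearson correlation of 0.69, and the pairs share no wells.

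**Figure D5:**
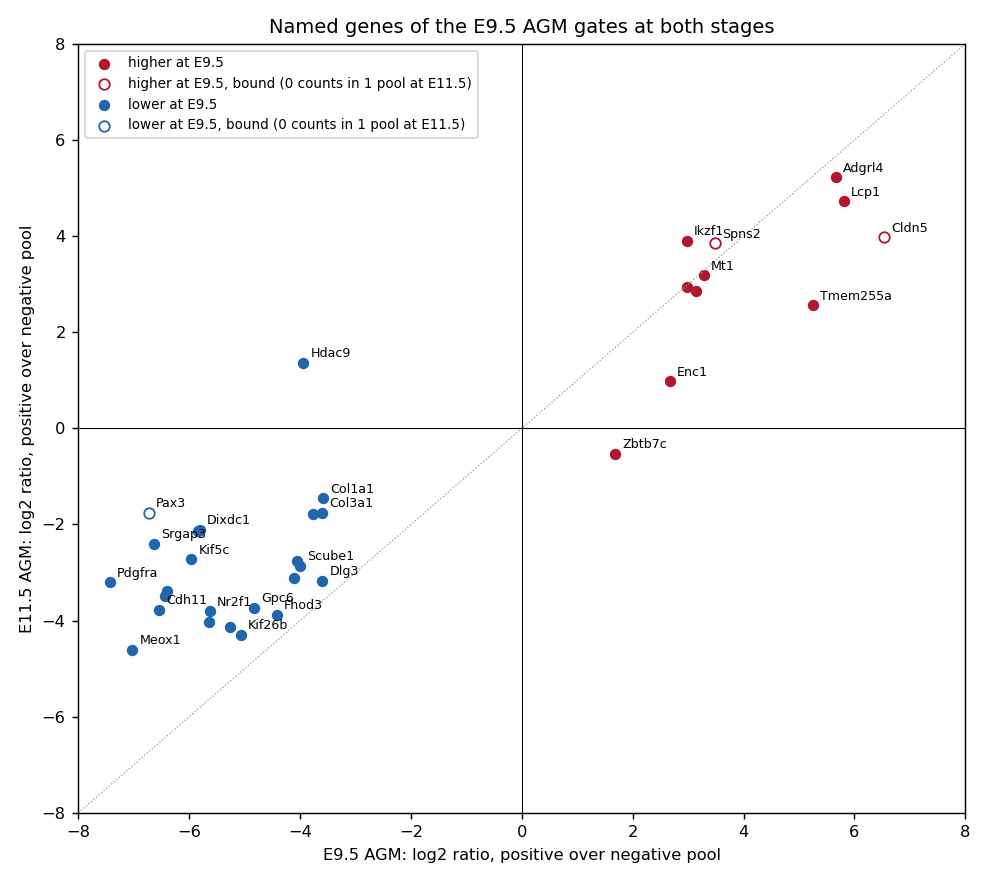
Log2 ratio of VE-cadherin positive over negative in the AGM at E9.5 (horizontal axis) and E11.5 (vertical axis) for the 36 named genes measured at both stages; open symbols are bounds where a pool had no count. The genes fall in the upper right and lower left, apart from Hdac9 at -3.95 and 1.37 and Zbtb7c at 1.68 and -0.52.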

How the data were processed

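Single-cell RNA of sorted AGM and yolk sac cells was used as the authors deposited it, in a table of raw counts for each chip with genes in rows and wells in columns. Per the submitters' processing notes reads were checked with FastQC, trimmed with cutadapt and mapped with STAR to the mouse build mm10 (GRCm38). The tool that counted reads, its strand setting, whether molecular identifiers were used and all versions are not given in the sources used here. The E9.5 table has 20575 gene rows and 1378 wells; 473 well barcodes occur in both chips' tables, so wells were keyed by chip and barcode. Of the E9.5 rows, 4009 held an Ensembl ID and took the symbol of that ID, 110 older symbols were updated, and 73 IDs had no symbol.

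Counts were summed per pool over wells with 500 or more genes. Pools were scaled by median-of-ratios size factors over 5674 genes with 20 or more counts in each of the 4 pools of the chip, so that a level is a count per 1000000 of scaled size. Log2 ratios carry exact conditional binomial 95% intervals, with a pool of 0 counts set to 3; differences between tissues combine both intervals. Scores from Scrublet marked 1 of 1283 wells at E9.5 (0.0779%) as doublets, too few for the caller to have worked, so doublets were in effect not removed; 9 of 1361 (0.661%) were marked at E11.5. Wells were thinned at random to 2000 counts for shares of wells, and 3 shallower AGM positive wells were left out. No test was made, since each pool is 1 sample. The ratio script was tested on simulated counts.

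Genes were named from candidates with 50 or more counts in the higher AGM pool, a count in 10% or more of its wells, no well with over 20% of these counts and a 2-fold difference: the 12 per direction set apart from the yolk sac with the largest smaller value of ratio and difference, the 10 per direction with under 20 yolk sac counts and the largest ratio (only 5 existed among the higher genes), and the 4 per direction with the largest smaller ratio over both tissues. Mitochondrial, ribosomal protein, haemoglobin, Gm and Rik genes were left out of naming. Cdh5, Runx1, Kit and Gata2 were given whatever their values, and list members are examples. The comparison, the rule and the gene lists were chosen with earlier results of these data known. Alternatives were other scalings, well filters, equal weight per well, count minimums, doublets or haemoglobin-rich wells left out and other cuts on endothelial genes; counts per haemoglobin count and leaving out the 1 well with most of a gene's counts in a pool were added after seeing the data. Software was Python 3.11.15, numpy 2.4.6, pandas 2.3.3, scipy 1.17.1, scanpy 1.11.5 and matplotlib 3.10.9.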

Additional observations from a re-analysis of the deposited data

Results flagged for a closer look

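Several named genes went at least 2-fold opposite ways in the AGM and the yolk sac at E9.5. The AGM log2 ratio minus the yolk sac log2 ratio was 5.45 for Aqp3, 5.79 for Ctla2a, 4.44 for Mt1, 5.10 for Epor, 4.42 for Creg1, 5.02 for Cited4 and 4.22 for Mt2, all higher in the positive gate of the AGM and lower in that of the yolk sac. It was -7.56 for Ntn1, -6.05 for Rab11fip4, -6.31 for Scube1 and -5.88 for Hdac9, all lower in the positive gate of the AGM and higher in that of the yolk sac. Without the 1 well that held 9 of the 15 yolk sac positive counts of Scube1 its difference was -4.99 and its yolk sac ratio 0.98, no longer 2-fold; without the 1 well that held 6 of the 17 of Rab11fip4 its difference was -5.42, on under 20 yolk sac counts. For Ctla2a 31.8% of the yolk sac negative counts lay in 1 well, and its difference without that well was not computed. With 1 pool per gate and tissue the differences given here were not tested.

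Outside the sorted cells, the 48 negative control wells of the E9.5 chip held 1489 haemoglobin counts out of 6452 counts.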

How the results depend on the processing

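None of the log2 ratios and differences of the named genes changed sign under the alternatives run; signs of other genes were not followed. The counts of called genes moved by more than 1.5 times with plain totals, another count minimum or the haemoglobin demand. With plain totals 185 genes were set apart as higher (main 369) and 1147 as lower (main 493), and the E11.5 calls were 593 higher and 3477 lower (main 1010 and 1663). Requiring 100 counts over a pair left 364 higher and 312 lower genes in the AGM, 149 and 66 set apart, and 246 and 348 at E11.5. Requiring 1 count gave 3264 higher and 3835 lower, 927 set apart as lower, and 4717 and 2838 at E11.5. Asking that a gene set apart as higher also exceed both negative pools per haemoglobin count left 16. Of the 12 leading higher genes, only Lcp1, Exoc3l4 and Clec1b were among them. This alternative was chosen after seeing the data, and the share of all genes that meet it was not counted. The share of AGM positive wells with endothelial genes was 96.7% with no thinning, 86.8% at a cut of 2 genes and 48.3% at 4, against 67.6%; that of AGM negative wells was 0.565% with no thinning and 1.13% at 2 genes, against 0.282%, all on 1 to 4 wells. Of these counts and shares 54 of 73 alternative values were taken as unchanged. For counts of genes this meant within 1.5 times of the main value. For shares of wells it meant inside the binomial interval of the main share. By that rule 96.7%, 86.8% and 48.3% were taken as moved, and 0.565% and 1.13% as unchanged. Of the counts of list members 904 of 1012 stayed within 1.5 times. Of the log2 ratios of named genes 559 of 561 kept within their counting error. Leaving aside the alternatives added after seeing the data, the 24 leading genes set apart all stayed so with these exceptions. They were 1 higher gene with plain totals, 1 lower gene with TMM, 1 lower gene with the strict well filter and 5 lower genes with equal weight per well. At the minimum of 100 counts, 8 higher and 11 lower genes had under 100 counts over a pair or were no longer set apart. Leaving out the 1 well with most of a gene's yolk sac positive counts, also chosen after seeing the data, gave AGM minus yolk sac differences of -2.75 for Gpc6 (main -4.28), -2.90 for Kif26b (-4.68), -3.89 for Fhod3 (-4.87), -5.42 for Rab11fip4 (-6.05) and -4.99 for Scube1 (-6.31). Of these genes only Gpc6 was then still set apart, as the others had under 20 counts over the yolk sac pair. No well at E9.5 had over 20% mitochondrial or 50% haemoglobin counts, so those filters changed nothing there. Ratios that rest on 1 to 3 counts in a pool are the least precise.

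No paired analysis was possible because each gate of a tissue and stage is 1 pool with no replicate number.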

Other observations

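Of 16 measured imprinted growth genes 2 were higher in AGM positive cells and 4 lower, where 9.99% and 14.7% of all genes were, with a median log2 ratio of -0.65, while in the yolk sac 11 of 14 were higher and 1 lower, with a median of 1.36. By the rule for single genes 2 of the 14 measured in both tissues were set apart as higher and 1 as lower. Plagl1, a zinc finger growth regulator, was higher in both, at 2.37 (1.85 to 2.93) and 1.21. Rian, a long RNA of the Dlk1 domain, had levels of 42.8 and 97.7 in the AGM pools and 95.1 and 21.9 in the yolk sac pools, ratios of -1.19 (-1.57 to -0.82) and 2.12. With plain totals 1 of the 16 was higher in the AGM and 8 were lower.

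Of 12 measured integrin genes 3 were higher and 3 lower in AGM positive cells, where 9.99% and 14.7% of all genes were. In the yolk sac 8 of 12 were higher and none lower, where 19.9% and 8.76% of all genes were. Itga6, a laminin receptor subunit, had levels of 119 and 39.3 in the AGM pools and 88.0 and 6.66 in the yolk sac pools. Itgb5, of a vitronectin receptor, had 3 and 31 counts in the AGM, against 23 and 12 in the yolk sac. Genes of handling stress were spread, with 2 of 14 higher and 3 lower in the AGM, near the shares over all genes. Fos had 6 and 27 counts and Junb had 21 and 5.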
